A study of Arabidopsis with 12 samples.

Results

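The response of Arabidopsis Col-0 seedlings to methyl jasmonate (MeJA) was measured on 4 ATH1 arrays, 2 of MeJA-treated and 2 of mock-treated seedlings, out of 12 arrays in the series. The 4 arrays were chosen by their labels alone. Col-0 is the Columbia wild type. Whole seedlings 7 days old, raised at 23 °C in long days on MS medium, received 100 µM MeJA or the solvent ethanol (mock) and were harvested after 4 h. The other 8 arrays, 2 per group, are of coi1-2 and ein3 eil1 seedlings of the same background, age and treatments. The coi1-2 mutant carries an altered jasmonate receptor gene, and ein3 eil1 carries altered genes for EIN3 and EIL1, transcription factors that carry out the ethylene response. The labels do not say that the 2 arrays of a group came from separate cultures, so the p-values may reflect technical spread alone.

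Jasmonates are lipid-derived hormones made from linolenic acid after wounding or attack. Their active form, a conjugate with isoleucine, brings the F-box protein COI1 together with JAZ repressors, which are then degraded, so that MYC and other transcription factors can act. In seedlings jasmonate is known to raise defence metabolism, to raise enzymes of its own synthesis and breakdown, and to slow growth.

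Values are log2 levels after robust multi-array averaging (RMA), so a difference of 1 is 2-fold. Array medians in Col-0 were 5.29 and 5.29 with MeJA, against 5.26 and 5.27 with mock. Replicate arrays correlated at 0.9941 (MeJA) and 0.9935 (mock) across features. A feature is a named gene, with its probe sets averaged, or a probe set without a single gene name, and 22589 were tested, 13356 of them named. A feature was called where limma gave a p-value under 0.05 after Benjamini-Hochberg adjustment across the 22589 features. Levels of one gene were not set against those of another, since a probe set's brightness depends on its probes. Few tissue marker genes were measured, and their levels are given without a test of the labelled tissue. RCA and LHCB4.1, of green tissue, were at 12.58 and 12.92 in MeJA replicate 1 and at 12.65 and 12.82 in mock replicate 1. The root hair gene EXPA7 was at 7.06 and 7.42 with MeJA, against 7.21 and 7.23 with mock. EXPA18, the other measured gene of the root list, was at 7.10 and 6.94 with MeJA, against 7.77 and 7.49 with mock. Its log2 change of −0.61 did not pass (limma adjusted p = 0.215). Of the 5 marker genes of guard cells, trichomes and phloem, 0 had a named feature here. A lower value in whole seedlings can come from fewer cells of a type or from less RNA per cell, and these cannot be told apart.

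MeJA changed 1722 features in Col-0 (7.62% of those tested), 1029 higher (4.56%) and 693 lower (3.07%). Large changes were mostly rises. A rise of at least 2-fold was called for 444 features (1.97%), and a fall of that size for 184 (0.815%). At 4-fold and beyond 98 were higher and 17 lower, and at 8-fold and beyond 22 were higher and 1 was lower. The median change was 0.90 among features that rose, −0.76 among those that fell, and −0.03 over all features. Calls followed level. When features were ranked by mean level and cut at the quartiles, in the lowest class 1 feature rose and 5 fell, while in the highest class 9.26% rose and 4.76% fell. Features without a gene name were called in 10% of cases (924 of 9233) and named genes in 5.97% (798 of 13356), so much of the response carries no gene name here.

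**Figure D1:**
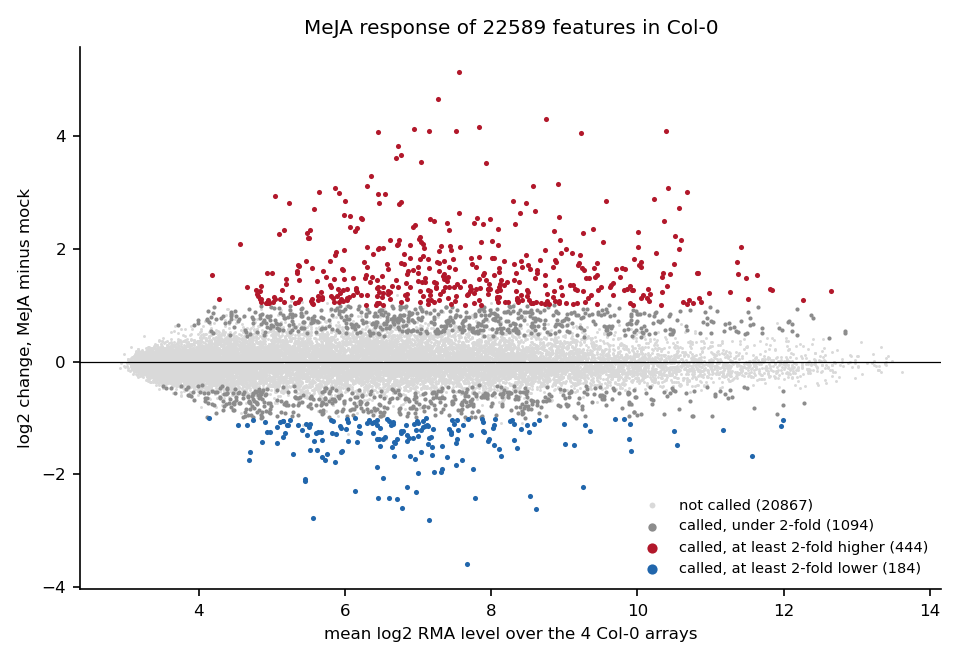
Log2 change (MeJA minus mock, y axis) against mean log2 RMA level over the 4 Col-0 arrays (x axis) for 22589 features. Red points are the 444 called features at least 2-fold higher, blue points the 184 at least 2-fold lower, dark grey points other called features and light grey points those not called; hardly any call lies at the lowest levels.

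The calls differed in whether they stayed when 1 Col-0 array was left out. This step leaves 1 array in a group and widens the standard error, so a lost call need not have rested on that array. EXPA4 changed by −0.68 on all arrays and by −0.67 to −0.69 whichever array was left out, yet its call did not stay. Of the 444 features at least 2-fold higher, 374 (84.2%) stayed called whichever 1 of the 4 Col-0 arrays was left out, and 159 (86.4%) of the 184 at least 2-fold lower did so. Below 2-fold, 116 of 585 rises (19.8%) and 78 of 509 falls (15.3%) stayed called. A call that stayed in this way is described as held below. The number of called features was 1145 without MeJA replicate 1, 1084 without MeJA replicate 2, 1175 without mock replicate 1 and 1072 without mock replicate 2. The gene just inside the 2-fold limit for a rise was AT4G29690 and the one just outside it AT3G44190, both at 1.00. The call of AT4G29690 was lost without MeJA replicate 1 (adjusted p = 0.327), mock replicate 1 (0.287) or mock replicate 2 (0.0678), and that of AT3G44190 without MeJA replicate 1 (0.0948) or mock replicate 2 (0.0963). For a fall these were BZIP61 and TUB6, both at −1.0.

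Among named genes the largest rise was that of UGT76E12, a UDP-glycosyltransferase, an enzyme class that attaches sugars to small molecules. It stood at 9.75 and 9.43 with MeJA, against 5.36 and 4.52 with mock, a 25.1-fold rise (log2 change 4.65 ± 0.27, SE, n = 2 per group, limma adjusted p = 8.22e-07). Both MeJA arrays lay far above both mock arrays. AT1G10585 followed with 8.39 and 8.57 with MeJA, against 4.28 and 4.56 with mock (4.06 ± 0.30). AT4G17470 was at 8.52 and 8.67 with MeJA, against 5.12 and 4.76 with mock (3.65 ± 0.20). AT1G09500 rose 12.2-fold, AT4G24350 9.72-fold and AT3G28220 8.68-fold. The 25 named genes with the largest rises, all of them called with arrays that did not overlap between MeJA and mock, changed by between 2.36 and 4.65 on the log2 scale, and all 25 calls held. In 14 of the 25 the mock mean was below the median of the mock arrays and in 2 below their lower quartile. At such levels part of the signal may be background, so the size of these rises is uncertain. AT1G54020 was one of the 2, at 6.48 and 6.52 with MeJA, against 3.62 and 3.53 with mock.

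BGLU24, a beta-glucosidase, was at 6.70 and 7.16 with MeJA, against 4.34 and 4.13 with mock (2.7 ± 0.22, adjusted p = 8.79e-06). The serine carboxypeptidase-like gene scpl30 was at 6.45 and 6.83 with MeJA, against 4.06 and 3.60 with mock (2.81 ± 0.20). AT5G52050, the detoxification efflux carrier DTX50, was at 7.44 and 7.30 with MeJA, against 4.56 and 5.0 with mock (2.59 ± 0.32, adjusted p = 0.000259). The neighbours in this ranking mostly differ by less than their standard errors, so the order of the genes below the first few is not fixed.

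The largest fall among named genes was that of EXPA8, an expansin, a protein that loosens the cell wall. It was at 4.07 and 4.27 with MeJA, against 7.02 and 6.86 with mock, a 6.84-fold fall (−2.77 ± 0.26, adjusted p = 2.36e-05). AT5G01740 was at 7.44 and 7.18 with MeJA, against 9.83 and 10 with mock (−2.61 ± 0.16, adjusted p = 1.08e-06). AT5G45670 fell 5.33-fold. AT5G11420 fell 5.23-fold, at 7.36 and 7.31 with MeJA, against 9.65 and 9.79 with mock. The 15 named genes with the largest falls changed by −2.77 to −1.83, and 14 of their calls held. The exception was AT4G33720, whose MeJA arrays were 6.72 and 4.27, against 8.25 and 7.61 with mock (−2.43 ± 0.53, adjusted p = 0.0137). Its change was −3.66 without MeJA replicate 1 and −1.21 without MeJA replicate 2, and its call was lost without mock replicate 1 (adjusted p = 0.116).

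**Figure D2:**
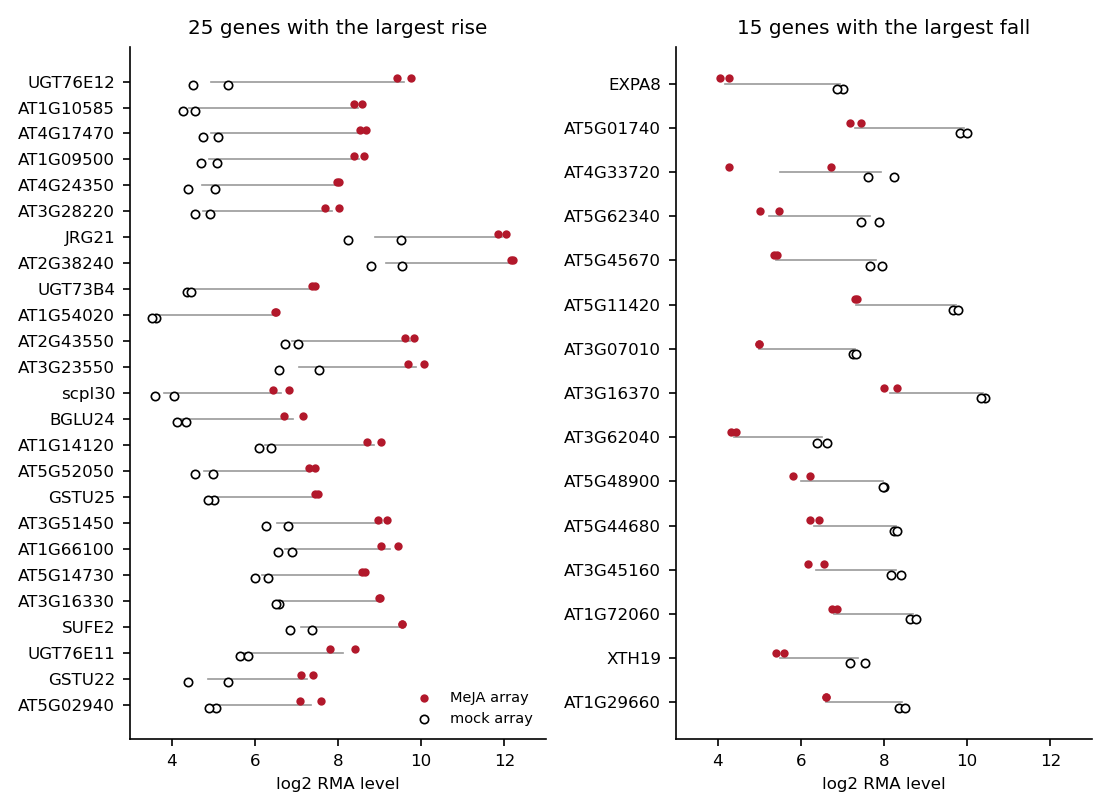
Log2 RMA level (x axis) on each Col-0 array for the 25 named genes with the largest rise (left) and the 15 with the largest fall (right); filled red circles are the 2 MeJA arrays, open circles the 2 mock arrays and grey lines join their means. MeJA and mock arrays do not overlap for any gene shown, by the rule that chose them, and the MeJA arrays of AT4G33720 lie widest apart.

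Most genes of the jasmonate pathway had no feature under a single name, so its arms cannot be ranked here. Of 11 listed enzymes that oxidise, hydrolyse, sulfate or methylate jasmonates, 5 were measured, and 3 rose with held calls. Among all named genes 3.42% rose. JRG21, named as a jasmonate-regulated gene, was at 12.05 and 11.85 with MeJA, against 9.52 and 8.24 with mock, an 8.44-fold rise (3.08 ± 0.29, adjusted p = 2.54e-05). AT2G38240, on the same list, was at 12.15 and 12.20 with MeJA, against 9.54 and 8.79 with mock (3.01 ± 0.22, adjusted p = 3.39e-06). AT5G05600 was at 12.35 and 12.14 with MeJA, against 10.78 and 10.20 with mock (1.76 ± 0.18, adjusted p = 4.26e-05). In each of these 3 genes mock replicate 1 was the higher mock array. The other measured members, JMT, which makes methyl jasmonate from jasmonic acid, and AT3G11180, stayed near the lowest levels of the arrays, with changes of −0.02 and 0.18 that did not pass.

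Biosynthesis was represented by 3 of 25 listed genes. OPCL1, a CoA ligase that activates the precursor OPC-8:0 for beta-oxidation, rose 2.51-fold, at 8.13 and 8.04 with MeJA, against 6.64 and 6.88 with mock (1.33 ± 0.14, adjusted p = 7.85e-05). AIM1, a beta-oxidation protein, and DGL, a lipase, changed by 0.27 and 0.13 and did not pass. Of 25 listed signalling genes, MYC3 and MYC4, transcription factors released from JAZ repression, were measured, with changes of 0.22 and 0.10 that did not pass. COI1 and EIL1 were not analysed here. EIN3 was at 9.52 and 9.50 with MeJA, against 9.59 and 9.50 with mock (−0.03 ± 0.14, adjusted p = 0.95).

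Limma called 0 of 2 wound and defence genes and 0 of 4 genes of the ERF and defensin branch, where 5.97% of all named genes were called. At that share, 0 calls in so few genes say little about either list. They say nothing of thionin or defensin genes outside the lists. On each list 1 gene had an unadjusted p under 0.05. The wound and defence genes were the thionin gene THI2.1, which changed by 0.03, and PYK10, which changed by 0.40 and did not pass. The defensin gene PDF1.2b was at 5.64 and 5.35 with MeJA, against 4.83 and 4.52 with mock (0.82 ± 0.30, adjusted p = 0.146). PDF1.2, also a defensin gene, was at 4.85 and 4.72 with MeJA, against 3.66 and 4.27 with mock (0.82 ± 0.41, adjusted p = 0.322). Both mock arrays lay below both MeJA arrays in PDF1.2b and PDF1.2, and 20% of all features had this order, while 27.2% had the opposite one. The other members, ORA47 and LCR67, changed by 0.14 and −0.13 and did not pass.

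Of 51 UDP-glycosyltransferase genes collected by symbol, 15 rose and 1 fell, and 9 of the rises and the fall held. Among all named genes 3.42% rose and 2.55% fell. The median of the family was 0.06, against −0.03 over all features, and 35 members did not pass. UGT73B4 and UGT73B5, which are neighbours on the chromosome, rose 7.91-fold and 4.86-fold. UGT73B4 was at 7.37 and 7.44 with MeJA, against 4.37 and 4.48 with mock. UGT73B5 was at 6.74 and 6.5 with MeJA, against 4.29 and 4.39 with mock. UGT76E11, next in name to UGT76E12, was at 8.41 and 7.82 with MeJA, against 5.64 and 5.83 with mock (2.38 ± 0.21). UGT76B1, which glucosylates isoleucic acid, rose 3.48-fold, at 9.74 and 9.80 with MeJA, against 7.99 and 7.95 with mock. UGT78D1, a flavonol rhamnosyltransferase, rose by 2.00 ± 0.24 (adjusted p = 0.000228). UGT73C1, GT72B1 and UGT87A2 rose by 1.47 ± 0.19, 1.25 ± 0.19 and 1.29 ± 0.20. IAGLU, which attaches glucose to the auxin indole-3-acetic acid and was not caught by the family's symbols, was at 9.71 and 9.12 with MeJA, against 8.04 and 7.64 with mock (1.58 ± 0.21, adjusted p = 0.000477). UGT72E1, which glucosylates lignin precursors, was the member that fell, at 6.87 and 6.34 with MeJA, against 7.80 and 7.81 with mock (−1.19 ± 0.19, adjusted p = 0.00137).

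Tau-class glutathione S-transferases, which couple glutathione to electrophilic compounds, were among the rises. Of 13 tau and phi genes 3 rose, all held, where 3.42% of all named genes rose, and the family median was 0.29. The other 10 did not pass, and 5 of the 13 had an unadjusted p under 0.05. GSTU20 was at 9.24 and 9.75 with MeJA, against 8.87 and 9.08 with mock (0.52 ± 0.17, adjusted p = 0.0975), and passed without MeJA replicate 1 (adjusted p = 0.0256). GSTU25 was at 7.53 and 7.44 with MeJA, against 5.03 and 4.87 with mock (2.54 ± 0.25, adjusted p = 3.32e-05). Its chromosomal neighbour GSTU26 was at 10.26 and 9.78 with MeJA, against 7.69 and 7.71 with mock (2.32 ± 0.19, adjusted p = 1.13e-05). GSTU22 was at 7.11 and 7.4 with MeJA, against 5.35 and 4.4 with mock (2.38 ± 0.28), with its mock arrays farther apart than its MeJA arrays. On the list of electrophile-response genes 4 of 14 were measured, and all 4 rose with held calls: GSTU25, UGT73B4, UGT73B5 and AER. GSTU25, UGT73B4 and UGT73B5 are also part of the family counts above. AER, an alkenal reductase that acts on reactive carbonyls, was at 10.79 and 10.79 with MeJA, against 9.68 and 9.34 with mock (1.28 ± 0.16, adjusted p = 0.000269). Closely related members share sequence, and whether their probe sets also bind each other's transcripts was not tested.

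**Figure D3:**
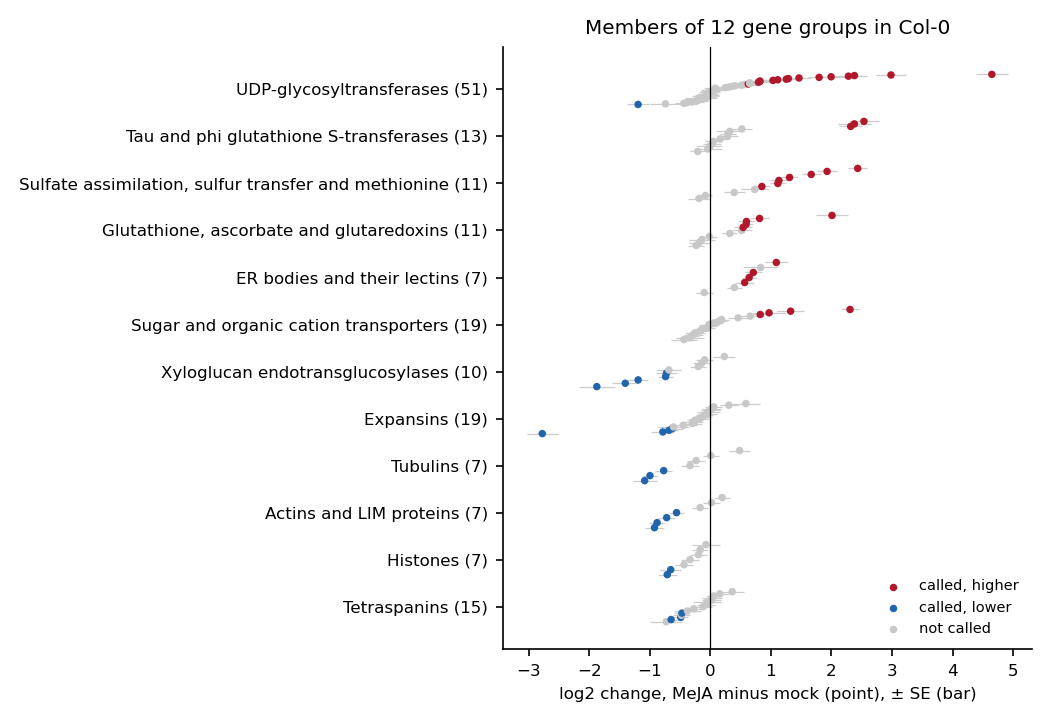
Log2 change (MeJA minus mock, x axis) with its SE for every measured member of 12 gene groups collected by symbol, with the number of members in parentheses. Red points passed and were higher, blue points passed and were lower, grey points did not pass; the glycosyltransferases span −1.19 to 4.65, while the 7 tubulins span −1.08 to 0.49.

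All lists and families here were chosen with earlier results of these data known, and the next groups were put together after their values had been seen. The counts of both are descriptions only. Those of the next groups are given beside the 3.42% of all named genes that rose and the 2.55% that fell. Sulfate assimilation, sulfur transfer and methionine genes contained 7 rises among 11 members, all 7 held, with a median of 1.12. SUFE2, a sulfur acceptor of iron-sulfur cluster assembly, was at 9.54 and 9.55 with MeJA, against 7.38 and 6.85 with mock, a 5.41-fold rise (2.43 ± 0.16, adjusted p = 2.27e-06). MGL, methionine gamma-lyase, which breaks methionine down, was at 11.32 and 11.12 with MeJA, against 9.53 and 9.06 with mock (1.93 ± 0.17, adjusted p = 1.47e-05). APS3, an ATP sulfurylase that activates sulfate, was at 8.68 and 8.33 with MeJA, against 7.15 and 7.24 with mock (1.31 ± 0.14). Its relative APS4 was at 9.03 and 9.02 with MeJA, against 9.10 and 9.11 with mock, a change that did not pass (−0.08 ± 0.11, adjusted p = 0.795). SIR, sulfite reductase, was at 10.53 and 10.51 with MeJA, against 9.84 and 9.50 with mock (0.85 ± 0.14, adjusted p = 0.00165). HL rose by 1.13 ± 0.15 (adjusted p = 0.000402). Of the methionine sulfoxide reductases, which repair oxidised methionine, MSRB6 rose by 1.67 on the log2 scale and MSRB9 by 1.12. MSRB9 was at 12.01 and 12.13 with MeJA, against 10.97 and 10.94 with mock. MSRB3, MSRB5 and MSRA5 had changes of 0.73, 0.40 and −0.19 that did not pass, and MSRB3 passed without mock replicate 2 (adjusted p = 0.0351).

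Glutathione, ascorbate and glutaredoxin genes contained 5 rises among 11, of which 1 held. That was GRX480, a glutaredoxin that binds TGA transcription factors, at 7.6 and 7.34 with MeJA, against 5.68 and 5.24 with mock (2.01 ± 0.27, adjusted p = 0.000434). GR1, a glutathione reductase, was at 8.99 and 9.03 with MeJA, against 8.43 and 8.41 with mock (0.59 ± 0.12, adjusted p = 0.00735), and was not called without MeJA replicate 2 (adjusted p = 0.0559). SAPX, a stromal ascorbate peroxidase, rose by 0.81 ± 0.16 (adjusted p = 0.00618), with adjusted p = 0.0758 without MeJA replicate 2 and 0.0604 without mock replicate 2.

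Glucosinolates are sulfur-containing defence compounds of this plant family. Both measured transporters rose with held calls. GTR1 was at 8.32 and 8.43 with MeJA, against 7.29 and 6.79 with mock (1.34 ± 0.18, adjusted p = 0.000369). GTR2 was at 9.14 and 9.07 with MeJA, against 8.28 and 8.17 with mock (0.88 ± 0.15, adjusted p = 0.00291). On the list for tryptophan and indole glucosinolates, 2 of 22 genes were measured and both rose. AT2G04400 was at 10.13 and 10.02 with MeJA, against 8.44 and 8.46 with mock (1.62 ± 0.15, adjusted p = 2.46e-05). UGT74B1, the glucosyltransferase of the glucosinolate core, was at 9.80 and 9.29 with MeJA, against 8.45 and 8.57 with mock (1.04 ± 0.20, adjusted p = 0.00601). Its adjusted p was 0.0706 without MeJA replicate 1 and 0.0511 without mock replicate 1. Of the aliphatic branch 2 of 15 genes were measured and neither passed. BCAT4, the aminotransferase that starts methionine chain elongation, was at 10.42 and 10.54 with MeJA, against 10.40 and 10.62 with mock (−0.03 ± 0.14, adjusted p = 0.948).

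ER bodies are stores of beta-glucosidase in the endoplasmic reticulum of seedlings. Of 7 ER body and jacalin-related lectin genes 4 rose and 1 of these calls held. NAI1, the transcription factor needed for ER bodies, was at 7.82 and 7.53 with MeJA, against 6.70 and 6.47 with mock (1.09 ± 0.19, adjusted p = 0.0028). The lectin gene JAL33 was at 11.83 and 11.71 with MeJA, against 11.04 and 11.07 with mock (0.71 ± 0.14, adjusted p = 0.00607), with adjusted p = 0.0563 without MeJA replicate 1. JAL34 was at 11.88 and 11.85 with MeJA, against 11.27 and 11.17 with mock (0.64 ± 0.12, adjusted p = 0.00562), with adjusted p = 0.0505 without mock replicate 2. PYK10, the main ER body glucosidase, was at 12.72 and 12.47 with MeJA, against 12.18 and 12.22 with mock, and did not pass (0.40 ± 0.13, adjusted p = 0.0909).

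Transport and other single genes also rose. The organic cation transporter gene OCT5 was at 7.46 and 7.11 with MeJA, against 5.03 and 4.92 with mock, a 4.95-fold rise (2.31 ± 0.16, adjusted p = 2.41e-06). OCT4 rose by 1.33 ± 0.22 (adjusted p = 0.00194). Of 19 sugar and organic cation transporter genes 4 rose, 2 of them, OCT5 and OCT4, with held calls, and the group's median was −0.02. TAAC, an ATP and ADP carrier of the thylakoid, was at 7.87 and 8.28 with MeJA, against 6.57 and 6.66 with mock (1.46 ± 0.19, adjusted p = 0.000316). LTI30, a dehydrin known from cold and drought, was at 9.58 and 9.88 with MeJA, against 8.0 and 7.49 with mock (1.98 ± 0.22, adjusted p = 8.4e-05). COR15A, the 1 measured gene of the list for abscisic acid and cold, changed by 0.60 ± 0.19 and did not pass (adjusted p = 0.0858). Fes1A, a partner of heat shock protein chaperones, was at 7.47 and 7.87 with MeJA, against 5.57 and 6.31 with mock (1.73 ± 0.28, adjusted p = 0.00181). SMZ, an AP2-type repressor of flowering, rose by 0.77 ± 0.14 (adjusted p = 0.00323), and SDH1-1, a subunit of succinate dehydrogenase, by 0.80 ± 0.13 (adjusted p = 0.0018). TBL37 and TBL41, of a family linked to acetylation of wall polysaccharides, rose by 1.18 ± 0.15 and 1.12 ± 0.19, and of 23 members of that family 2 rose and 1 fell.

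Among 5 measured stress regulators 2 rose, both held. STZ, a zinc finger repressor, was at 8.36 and 8.83 with MeJA, against 7.16 and 6.58 with mock (1.72 ± 0.25, adjusted p = 0.00068). CML38, a calmodulin-like calcium sensor, was at 8.97 and 8.83 with MeJA, against 7.78 and 6.85 with mock (1.58 ± 0.29, adjusted p = 0.00426). Its chromosomal neighbour AT1G76640 rose by 1.44 ± 0.15 (adjusted p = 7.35e-05). These were the 2 rises among 8 calmodulin-like genes. WRKY6 was at 7.78 and 8.49 with MeJA, against 7.67 and 7.05 with mock, and did not pass (0.77 ± 0.23, adjusted p = 0.0611). It passed without MeJA replicate 1 (adjusted p = 0.0135) or without mock replicate 1 (adjusted p = 0.0248). Of 22 cytochrome P450 genes 2 rose and 1 fell, where 3.42% of all named genes rose and 2.55% fell. The fall was that of CYP71B23, at 5.30 and 5.03 with MeJA, against 7.00 and 6.48 with mock (−1.58 ± 0.17, adjusted p = 9.43e-05). CYP71B37 rose by 0.84 ± 0.13 (adjusted p = 0.00133).

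Xyloglucan endotransglucosylases, which cut and rejoin wall polymers, contained 5 falls among 10 members, 4 held, with a median of −0.70, where 2.55% of all named genes fell. XTH19 was at 5.59 and 5.4 with MeJA, against 7.18 and 7.55 with mock (−1.87 ± 0.30, adjusted p = 0.00155). XTH33 was at 5.07 and 5.62 with MeJA, against 6.51 and 6.98 with mock (−1.40 ± 0.21, adjusted p = 0.0012). XTH26 was at 5.58 and 5.25 with MeJA, against 6.56 and 6.66 with mock (−1.19 ± 0.16, adjusted p = 0.000454). XTH18, the neighbour in name of XTH19, was at 9.62 and 9.41 with MeJA, against 9.24 and 9.33 with mock, and did not pass (0.23 ± 0.18). Expansins contained 4 falls among 19 members, of which that of EXPA8 held, and the family's median was −0.18.

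Cytoskeletal genes were grouped after their values had been seen. Of 7 tubulin genes 3 fell, all beta-tubulins, 2 of the calls held and 4 genes did not pass, where 2.55% of all named genes fell. TUB6 was at 8.56 and 8.77 with MeJA, against 9.72 and 9.60 with mock (−1.0 ± 0.13, adjusted p = 0.000294). TUB5 was at 8.57 and 8.49 with MeJA, against 9.24 and 9.35 with mock (−0.77 ± 0.14, adjusted p = 0.00418). TUB1 was at 5.50 and 6.0 with MeJA, against 6.75 and 6.92 with mock (−1.08 ± 0.20, adjusted p = 0.00439), and was not called without MeJA replicate 1 (adjusted p = 0.0552). Of 7 genes for actins and actin-binding LIM proteins 4 fell, and the calls of ACT11 (−0.92 ± 0.16, adjusted p = 0.00305) and PLIM2b (−0.88 ± 0.14, adjusted p = 0.00131) held, while 3 genes did not pass. SPK1, an activator of ROP GTPases that shapes cells through actin and microtubules, was at 5.30 and 5.24 with MeJA, against 6.13 and 6.12 with mock (−0.86 ± 0.12, adjusted p = 0.000773). SKU5, a wall-linked protein of directional root growth, was at 9.61 and 9.45 with MeJA, against 10.18 and 10.32 with mock (−0.71 ± 0.13, adjusted p = 0.00361). Of 7 histone genes 2 fell and of 15 tetraspanin genes 3 fell, and 0 of these 5 calls held.

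Regulators, a defensin gene and other single genes were also among the falls. Of 7 WRKY factors 1 fell, where 2.55% of all named genes fell. It was WRKY22 (−0.92 ± 0.19, limma adjusted p = 0.00906), and its call did not hold. YAB3, a YABBY factor of the lower leaf side, was at 6.88 and 7.14 with MeJA, against 8.06 and 8.03 with mock (−1.03 ± 0.16, adjusted p = 0.00115). The AP2-type factor gene tny was at 5.24 and 5.03 with MeJA, against 6.48 and 7.02 with mock (−1.61 ± 0.29, adjusted p = 0.00336). BZIP61 was at 6.67 and 6.54 with MeJA, against 7.53 and 7.69 with mock (adjusted p = 0.000402). PDF2.5, a defensin gene, was at 6.99 and 7.14 with MeJA, against 8.25 and 8.49 with mock, a 2.48-fold fall (adjusted p = 0.000119). DRT100 was at 6.55 and 6.90 with MeJA, against 8.35 and 8.59 with mock, a 3.36-fold fall (−1.75 ± 0.19, adjusted p = 6.95e-05). SCPL34, of the carboxypeptidase-like family that also holds scpl30, was at 7.69 and 7.93 with MeJA, against 8.89 and 9.10 with mock (−1.19 ± 0.17, adjusted p = 0.000879). ALDH3F1, an aldehyde dehydrogenase, fell by 0.92 on the log2 scale (adjusted p = 0.00129).

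Other lists held few measured genes and hardly any call. Limma called 0 of 2 ethylene, 0 of 5 flavonoid, 0 of 2 photosynthesis, 0 of 2 cell cycle, 0 of 2 root and 0 of 2 reference genes. Among all named genes 5.97% were called, so 0 calls in so few genes say little about these lists. An unadjusted p under 0.05 was found for 1 gene each of the flavonoid, cell cycle and root lists and for 0 of the ethylene, photosynthesis and reference lists. Of 8 cellulose synthase and related genes limma called 0, and 2 had an unadjusted p under 0.05. The reference genes AT4G34270 and PEX4 changed by 0.09 and −0.04. On the auxin list 3 of 4 genes had an unadjusted limma p under 0.05. WES1 and IAA29, with changes of −0.55 and −0.36, did not pass after adjustment. The auxin list thus had 1 called fall among 4, where 2.55% of all named genes fell. It was that of GH3.17, an enzyme that conjugates auxin to glutamate (−0.61 ± 0.16, adjusted p = 0.0335). Without MeJA replicates 1 and 2 its adjusted p was 0.173 and 0.0944, and without mock replicates 1 and 2 it was 0.125 and 0.136. Of 25 genes listed for sulfate, glutathione and antioxidants and for chlorophyll breakdown, 0 had a named feature.

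Of the 10 called named genes with the highest mean level, AT5G05600, MSRB9 and AT1G62510 had held calls. AT1G62510 was at 11.94 and 11.88 with MeJA, against 12.72 and 12.58 with mock (−0.74 ± 0.12, adjusted p = 0.00143).

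Rises came in chromosomal neighbours in several places. Among 5878 pairs of adjacent protein-coding genes in which both were measured under a name, 10 pairs had both genes at least 2-fold higher. Of the neighbours of such a gene 10.8% were themselves at least 2-fold higher, against 1.42% of all named genes. For falls 3 pairs had both genes at least 2-fold lower and the share of neighbours was 6.74%, against 0.681%. The pairs of higher genes included UGT73B5 and UGT73B4, GSTU25 and GSTU26, AT1G76640 and CML38, and AER and AT5G16980. Several pairs are members of one family, for which shared probe binding was not tested.

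The same genes were followed in the mutants, where each change was taken against the mutant's own mock arrays. The mock levels of the mutants are not given here. A smaller change can go with a different mock level or with a different MeJA level, and which of these held was not tested. The 25 genes with the largest rise were chosen on the Col-0 arrays that also enter each difference, so the Col-0 side of the difference was picked for its size. The median response of the 25 was 1.34 in coi1-2 and 1.13 in ein3 eil1, against 2.81 in Col-0. Of the 25, 16 rises were called in coi1-2 and 19 in ein3 eil1. The share of all features that rose in each mutant is not given here, so these counts have no baseline. The response was called smaller than in Col-0 for 14 genes in coi1-2 and for 14 genes in ein3 eil1. Over all features a difference from Col-0 was called for 1.17% in coi1-2 and 1.81% in ein3 eil1. Differences below 0 were called for 0.784% of all features in coi1-2 and for 1.39% in ein3 eil1. For the 15 genes with the largest fall, the median was −0.53 in coi1-2 and −0.97 in ein3 eil1, against −2.22 in Col-0. Of these, 11 fell less in coi1-2 and 8 fell less in ein3 eil1, and differences above 0 were called for 0.385% and 0.425% of all features.

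AT4G17470 changed by 0.35 in coi1-2 and by 3.65 in Col-0, a difference of −3.30 ± 0.28 (adjusted p = 0.000263), and by 2.59 in ein3 eil1. AT3G28220 rose by 2.31 in ein3 eil1 and had a change of 0.57 in coi1-2 (difference from Col-0 −2.55, adjusted p = 0.00152). AT4G24350 had changes of 1.02 in coi1-2 (difference −2.26, adjusted p = 0.00375) and 2.20 in ein3 eil1. The ein3 eil1 differences of these genes from Col-0 were also below 0 and did not pass. They were −1.06 for AT4G17470 (limma adjusted p = 0.0834), −0.81 for AT3G28220 (0.246) and −1.08 for AT4G24350 (0.123). AT1G10585 was low in both, with 0.83 in coi1-2 (difference −3.23) and 0.66 in ein3 eil1 (difference −3.40, adjusted p = 0.00253). AT1G09500 rose by 1.58 in coi1-2 and by 0.88 in ein3 eil1, with differences of −2.03 and −2.73. Whether the responses of the mutants differed from each other was not tested here. GSTU25 was at 2.58 in coi1-2 and 2.19 in ein3 eil1, against 2.54 in Col-0, and SUFE2 was at 1.89 and 1.84, against 2.43.

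Other responses were called smaller than in Col-0 in at least 1 mutant. JRG21 changed by 0.72 in ein3 eil1, against 3.08 in Col-0 (difference −2.36, adjusted p = 0.0142), which did not pass without Col-0 MeJA replicate 1, adjusted p = 0.059. In coi1-2 JRG21 rose by 1.81, and its difference from Col-0 did not pass (−1.27, limma adjusted p = 0.221). UGT76E12 rose by 1.90 in ein3 eil1, against 4.65 in Col-0 (difference −2.75, adjusted p = 0.00355). In coi1-2 it rose by 2.67 (difference −1.98, adjusted p = 0.0246). That difference did not pass without MeJA replicate 1 (adjusted p = 0.0912), MeJA replicate 2 (0.053) or mock replicate 2 (0.0826) of Col-0. AT2G38240 changed by 0.74 in ein3 eil1 (difference −2.27, adjusted p = 0.0032) and by 1.34 in coi1-2 (difference −1.67, adjusted p = 0.0199). The coi1-2 difference did not pass without MeJA replicate 1 (adjusted p = 0.0579), MeJA replicate 2 (0.075) or mock replicate 2 (0.0509) of Col-0. Among the falls, EXPA8 changed by −0.42 in coi1-2 and by −2.77 in Col-0 (difference 2.35, adjusted p = 0.00771). AT5G01740 changed by −0.56 in coi1-2 (difference 2.05, adjusted p = 0.000831). In ein3 eil1 EXPA8 changed by −1.5 (difference 1.27, limma adjusted p = 0.119) and AT5G01740 by −1.93 (difference 0.67, adjusted p = 0.177). Neither of these differences passed. AT5G45670 changed by −0.09 in coi1-2 (difference 2.33, adjusted p = 0.00099) and by −1.12 in ein3 eil1 (difference 1.3, adjusted p = 0.0263). The ein3 eil1 difference did not pass without MeJA replicate 1 (adjusted p = 0.0901), MeJA replicate 2 (0.0636) or mock replicate 2 (0.0979) of Col-0.

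**Figure D4:**
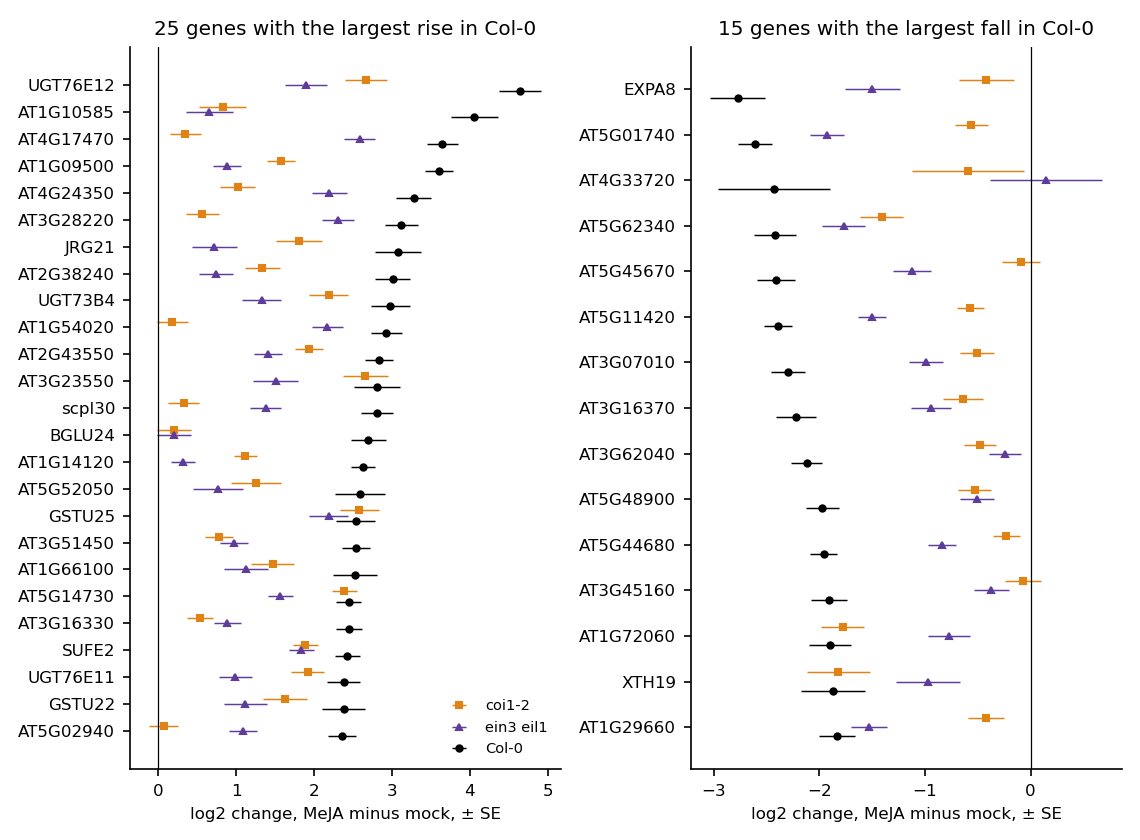
Log2 change (MeJA minus mock, x axis) with its SE in coi1-2 (orange squares), ein3 eil1 (purple triangles) and Col-0 (black circles) for the 25 genes with the largest rise in Col-0 (left) and the 15 with the largest fall (right). The Col-0 points lie farthest from 0 for most genes, as the choice of genes favours, while GSTU25 is close to 2.5 in coi1-2 and Col-0.

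The mock arrays of Col-0 differed from each other in a patterned way. Over the 444 features at least 2-fold higher with MeJA, mock replicate 1 minus mock replicate 2 had a median of 0.15, and 71.2% of the features were higher in replicate 1. Over all features the median was −0.01 and 48.1% were higher. Over the 184 features at least 2-fold lower the median was −0.09 and 38% were higher. For the MeJA arrays the median of replicate 1 minus replicate 2 was 0.08 over the 444 features, with 58.6% higher. Mock replicate 1 was thus nearer to the MeJA arrays than mock replicate 2 in both sets. The part of this in the sizes given above was not tested beyond leaving out each array.

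**Figure D5:**
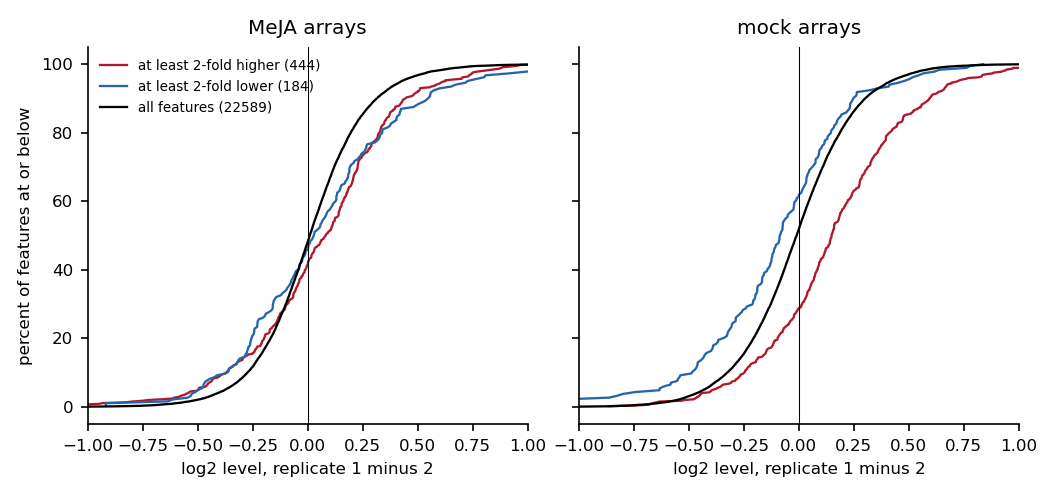
Cumulative percent of features (y axis) against the difference in log2 level between replicate 1 and replicate 2 (x axis, shown from −1 to 1) for the MeJA arrays (left) and the mock arrays (right). The red line is the 444 features at least 2-fold higher, the blue line the 184 at least 2-fold lower and the black line all 22589 features; in the mock panel red lies to the right of black and blue to the left.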

How the data were processed

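Total RNA of whole seedlings was hybridised to ATH1 arrays, 12 in all, 2 in each of 6 groups. The authors deposited log2 expression values, which the submitters' processing notes tie to Affymetrix Expression Console, RMA and Partek. No source used here gives a genome build. Of 22810 probe sets, 64 controls were removed. A single gene name was given for 13513, several for 503 and none for 8730, and 13436 matched the TAIR10.1 gene table, used for names and gene order only. Probe sets of one gene were averaged, giving 22589 features. No further normalization or filter was applied.

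Group means were fitted over all 12 arrays by lmFit and eBayes of limma 3.58.1 (R 4.3.3, 6 residual degrees of freedom), with Benjamini-Hochberg adjustment over all features and a threshold of 0.05. All limma tests were two-sided. The difference between a mutant's response and that of Col-0 was tested in the same fit. The fit was tested on simulated data. The number of arrays limits the precision. Named genes were the 25 largest rises and 15 largest falls among called genes whose groups did not overlap, the 10 called genes with the highest level, up to 8 called and 3 uncalled members of each list and symbol family, and the genes beside the 2-fold limit. Other single genes with a symbol, such as LTI30 or DRT100, were named after their values were seen. Members and lists were chosen with earlier results of these data known, and the groups of sulfur, redox, glucosinolate transport, ER body, transporter, tubulin, actin and LIM, histone, tetraspanin and trichome birefringence-like genes were added after values were seen. Alternatives were another set of arrays, filters on level, array weights, centring, single probe sets, quantile normalization, a replicate block, a trended robust prior, stricter and looser thresholds, and leaving out each Col-0 array.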

Additional observations from a re-analysis of the deposited data

Results flagged for a closer look

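The MeJA response of several of the most changed genes differed between a mutant and Col-0 by the test of the difference itself (limma, mutant minus Col-0, log2 scale). These genes were chosen for large changes on the same Col-0 arrays, which favours a smaller response in the mutants. In coi1-2 the difference was −1.98 for UGT76E12, −3.23 for AT1G10585, −3.30 for AT4G17470, −2.03 for AT1G09500, −2.26 for AT4G24350, −2.55 for AT3G28220 and −1.67 for AT2G38240. For genes that fell in Col-0 it was 2.35 for EXPA8, 2.05 for AT5G01740 and 2.33 for AT5G45670. In ein3 eil1 it was −2.75 for UGT76E12, −3.40 for AT1G10585, −2.73 for AT1G09500, −2.36 for JRG21, −2.27 for AT2G38240 and 1.3 for AT5G45670. The coi1-2 differences of UGT76E12 and AT2G38240 and the ein3 eil1 differences of JRG21 and AT5G45670 did not pass when some single Col-0 arrays were left out.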

How the results depend on the processing

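With 2 arrays per group the number of calls was lower whichever Col-0 array was left out. Leaving out each Col-0 array in turn gave 1072 to 1175 called features, 668 to 712 higher and 375 to 463 lower. The same step gave 140 to 257 called differences for coi1-2 and 156 to 308 for ein3 eil1. Where it left 1 array in a group, that array was assumed to vary like the other groups. At an adjusted p under 0.01, 924 features were called, 601 higher and 323 lower, with 103 differences for coi1-2 and 90 for ein3 eil1. With a 1.5-fold limit in place of 2-fold, 892 called features were higher and 541 lower. The deviations of same-numbered Col-0 mock and MeJA arrays correlated at r = −0.08, and those of other pairs of groups at −0.218 to 0.233. With 2 arrays per group this cannot settle whether the replicate numbers pair the samples. A fit with the replicate number as a block called 1698 features. A fit on the Col-0 arrays only called 1359, with 854 higher and 505 lower, against 1722, 1029 and 693 in the main fit. Some changes near 0 that did not pass turned sign. The change of JMT was 0.029 and that of EXPA7 −0.0196 under quantile normalization, and that of EXPA7 was −0.0086 under median centring. Leaving out each Col-0 array gave ranges of −0.0888 to 0.0412 for JMT, −0.0055 to 0.2054 for MYC4, −0.146 to 0.2111 for THI2.1 and −0.0729 to 0.0104 for EIN3. The ranges were −0.0493 to 0.3209 for ORA47, −0.1428 to 0.0791 for BCAT4, −0.1118 to 0.0552 for LHCB4.1, −0.0912 to 0.0041 for PEX4 and −0.1567 to 0.1984 for EXPA7. The cause of these shifts was not tested.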
